A study of Mus musculus with 4 samples.

Results

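Heterochromatin and H3K9 methylation factors were followed through the early differentiation of mouse embryonic stem (ES) cells and through its disturbance by inhibitors of chromatin enzymes. The 10 genes were Suv39h1, Suv39h2, Setdb1, Ehmt1, Ehmt2, Trim28, Cbx1, Cbx3, Cbx5 and Atrx, and the rule takes them by gene name and not by a measured value, although the set was proposed with earlier results of these data known. Every probe that the array design assigned to them was read, which gave 18 probes of 55681 in all, for 10 genes of 35856. All arrays held RNA of E14Tg2A, an established ES line of strain 129/Ola. The groups were control ES cells at day 0, control epiblast-like aggregates (ELA) at day 2 of differentiation in minimal medium, ELA formed in 50 nM 5-azacytidine, which inhibits DNA methyltransferases (AZA), and ELA formed in 100 µM 5-carboxy-8-hydroxyquinoline, which inhibits lysine demethylases (CHQ). Each group was 1 array that carried a pool of RNA from 3 experiments on a single line, so no replicate error, test or p-value exists for any difference below. An array of cells with a SWI/SNF knockdown was not analysed here.

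Methylation of lysine 9 on histone H3 (H3K9) is the best known mark of silent heterochromatin. Suv39h1 and Suv39h2 write the trimethyl mark at pericentric repeats, Setdb1 writes it at retroviral elements where KRAB zinc finger proteins and Trim28 recruit it, and the pair Ehmt1 (GLP) and Ehmt2 (G9a) writes the mono- and dimethyl mark in euchromatin. The HP1 proteins, encoded by Cbx5 (HP1α), Cbx1 (HP1β) and Cbx3 (HP1γ), bind the methylated lysine, and Atrx is a chromatin remodeller that deposits histone H3.3 in heterochromatin together with Daxx.

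The probes whose values carry the results are shown first, since probes of one transcript did not always give the same difference. They are written 5′ to 3′ in the sense of the transcript, with positions counted from the transcript start of the array design and with mm9 coordinates. Those of the first set lie in the coding part of their transcript and are given whole. Suv39h1, position 965, chrX:7647715-7647774, had the widest range over the arrays among the brightest probes. Cbx3, position 517, chr6:51431757-51431816, and Atrx, position 668, chrX:103079652-103079711, moved more than the 3′ probe of the same transcript. Trim28, position 2870, chr7:13615914-13616069, spans 156 bases of the genome for a 60-base probe and so crosses an intron.
Suv39h1: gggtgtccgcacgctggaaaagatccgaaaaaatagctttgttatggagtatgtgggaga
Cbx3: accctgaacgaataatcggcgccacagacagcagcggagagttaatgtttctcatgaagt
Atrx: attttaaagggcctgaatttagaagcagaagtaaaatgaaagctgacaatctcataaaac
Trim28: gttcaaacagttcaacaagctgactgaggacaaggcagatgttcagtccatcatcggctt

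The brightest probes of Suv39h2 (position 4123, chr2:3373186-3373245) and Ehmt1 (position 4922, chr2:24646395-24646454) lie at the 3′ end of their transcripts and begin with GT repeats. Their first 30 bases are shown, with each run of at least 3 GT in capitals.
Suv39h2: ttcgggGTGTGTGTGTctGTGTGTGTGTGT
Ehmt1: GTGTGTGTGTgaGTGTGTGTgactcttcta

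Such runs were rare among the probes. A run of 5 GT on either strand was present in 244 of 55681 probes (0.438%), and 91.7% of the usable ones were well above background on all arrays, against 51.1% of all probes. The 221 of them that were above background everywhere had a median log2 difference from ELA of -0.54 on the AZA array and -0.44 on the CHQ array. Their median was 0.11 for ELA minus ES and 0.03 between the inhibitors (CHQ minus AZA). The levels of Suv39h2 and Ehmt1 are therefore given at both of their probes, and the part of the repeat in them was not tested.

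Promoters were found for all 10 genes, 14 start sites in RefSeq (build GRCm38.p6; 250 bases before to 50 after a start), and most were rich in CpG, the dinucleotide that DNA methyltransferases modify. They held 8 to 40 CpG with a median between 28 and 29, against a median of 7 over 32851 mouse promoters. At least 15 CpG were present in 12 of the 14 starts and in 34.6% of all promoters. The exceptions were the single start of Atrx with 11 CpG and 1 start of Cbx5 with 8. The E2F letters TTTCCCGC were found in 0 of the 14 starts (1.07% of promoters) and TTTGGCGC in 1, that of Cbx3 (0.514%), while CCAAT was found in 4 (37.4%), each searched on both strands. The promoters of Suv39h1, the member that fell most after treatment at its brightest probe, and of Setdb1, which lay higher after treatment, are shown from 250 bases before to 30 after the start, with CpG in capitals. For Suv39h1, which has a second start nearby with 37 CpG, this is the upstream start (chrX:8074731-8075010, minus strand), and for Setdb1 the position is chr3:95357173-95357452, minus strand.
Suv39h1: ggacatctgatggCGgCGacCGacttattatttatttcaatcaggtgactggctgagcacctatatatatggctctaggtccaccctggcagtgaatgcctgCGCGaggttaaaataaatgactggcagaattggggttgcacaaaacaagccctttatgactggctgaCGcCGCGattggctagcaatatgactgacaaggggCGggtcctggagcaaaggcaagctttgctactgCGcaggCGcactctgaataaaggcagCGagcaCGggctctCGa
Setdb1: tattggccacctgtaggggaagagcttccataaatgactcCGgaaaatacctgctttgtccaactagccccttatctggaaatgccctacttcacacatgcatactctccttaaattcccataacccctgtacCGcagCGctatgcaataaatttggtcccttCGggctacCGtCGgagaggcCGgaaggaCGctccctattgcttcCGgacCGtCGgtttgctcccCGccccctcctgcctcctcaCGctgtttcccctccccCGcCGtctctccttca
The full windows of these starts held 15 CpG each and the letters CCAAT, while the other start of Suv39h1 held no CCAAT.

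Spots well above background made up 60.6%, 55.1%, 69.1% and 69.2% of the gene spots on the ES, ELA, AZA and CHQ arrays, and 0 spots were saturated. The ES and ELA arrays shared a slide, with a median local background of 59 and 77 intensity units, and the AZA and CHQ arrays shared another, with 14 and 13. When either treated array is set against ELA, slide and treatment cannot be told apart, whereas ELA minus ES and CHQ minus AZA lie within a slide. Both treated comparisons also share the ELA array, so a departure of that array enters both. Repeated spots of a probe had a pooled SD of 0.15 log2 units, which gives an SD of 0.21 for a difference between arrays from spotting and reading alone. The defining markers of pluripotent cells were present, with Pou5f1 between 13.56 and 14.95 on the 4 arrays and Zfp42 at 15.80 in ES, 11.99 in ELA, 15.72 in AZA and 15.04 in CHQ. All 6 pluripotency markers were lower in ELA than in ES, 4 of them by 1 or more on the log2 scale, and 5 of 6 were higher than in ELA on either treated array, 4 by 1 or more in AZA and 3 in CHQ. Nanog, one of the 6, is read at its brightest probe, and its other probe had the opposite sign from ES to ELA (0.23), in AZA (-1.55), in CHQ (-1.01 against 0.01) and for CHQ minus AZA (0.53). The count of higher genes in CHQ was 4 of 6 under the 75th percentile, the spike-in probes and the deposited table. In a bulk sample, fewer cells of a type and less RNA per cell cannot be told apart.

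A gene was called changed under 3 conditions, namely a log2 difference of 1 or more in size, a mean log2 level over the arrays compared of 7.5 or more, and detection well above background on 1 array or both. The brightest probe stood for the gene. All 10 genes were well above background on the 4 arrays, at 17 of the 18 probes. The remaining probe, a second one for Trim28 designed on a clone of the opposite strand (chr7:13609067-13609124), was not well above background on any array and gives no fold.

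**Figure D1:**
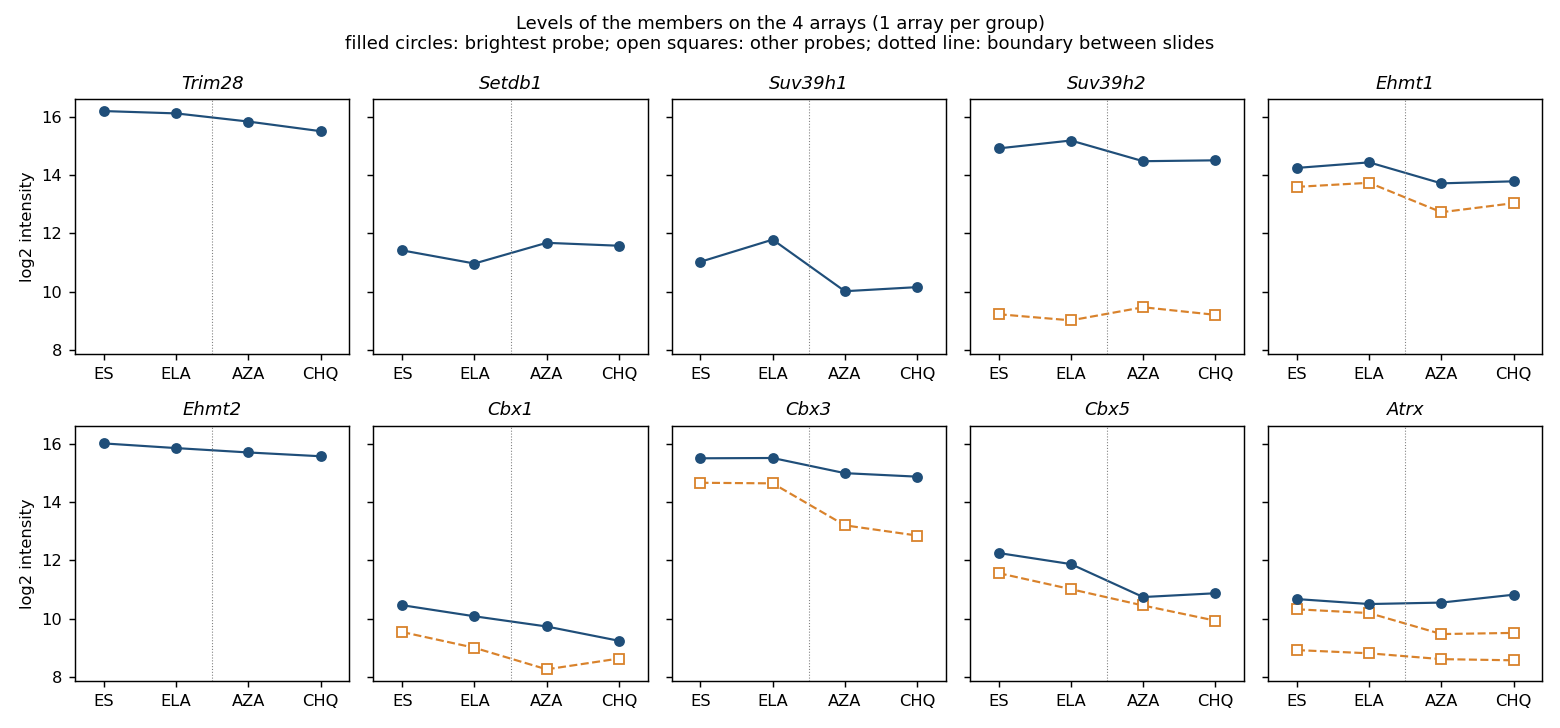
Normalised log2 intensity of the 10 genes (vertical axis) on the ES, ELA, AZA and CHQ arrays (horizontal axis), 1 point per array and 1 line per probe, with no error bars because each group was 1 array. Suv39h1 was highest in ELA at 11.79 and lowest in AZA at 10.02, Setdb1 was lowest in ELA at 10.97, and the probes of Suv39h2, Cbx3 and Atrx did not run in parallel.

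The first comparison asked how these factors differ between the ground and the primed state. None of the 10 genes passed the threshold between ES and ELA, where 10.1% of 18879 tested genes did. Under scaling to spike-in probes Setdb1 (-1.06) and Cbx5 (-1.05) passed, with 21.0% of all tested genes. The median difference over the 10 genes was -0.12, against -0.02 over all tested genes, and 6 were lower and 4 higher in ELA. The 17 probes lay between -0.55 and 0.77.

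Suv39h1 had the largest of these differences. Its log2 level was 11.03 in ES and 11.79 in ELA, a difference of 0.77, and 7.36% of tested genes lay as high or higher. The difference was 0.16 under the spike-in probes, which put all genes at -0.60. Setdb1, at 11.42 in ES and 10.97 in ELA, differed by -0.45. At the brightest probes these writers of trimethylated H3K9 had the highest and the lowest of the 10 differences, but Cbx5 and Cbx1 lay below Setdb1 at their other probes.

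The HP1 genes differed among themselves. Cbx5 was lower in ELA at both probes (-0.39 and -0.55), and so was Cbx1 (-0.38 and -0.54). Cbx3 was level, at 15.50 and 15.51 at its brightest probe and 14.66 and 14.64 at the other. The Cbx3 difference of 0.01 is within the spotting error and took the other sign in 4 of 9 alternative settings.

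Trim28 (-0.08), Ehmt2 (-0.15) and Atrx (-0.17, -0.11 and -0.14 at its 3 probes) lay within 0.21 of no difference. Ehmt1 differed by 0.19 and 0.14 at its 2 probes. Suv39h2 differed by 0.27 at the probe with the GT run and by -0.22 at the other (position 1715, chr2:3375594-3375653), so its direction depends on the probe.

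After AZA treatment during ELA formation most of these genes read lower at their brightest probe, but few passed the threshold. Among those lower, Ehmt2 (-0.16) lay within the 0.21 of spotting, and Suv39h2 was higher at its other probe (0.45). Of the 10 genes, 8 were lower and 2 higher in AZA than in ELA, the median difference was -0.43 against -0.07 over all tested genes, and 54.2% of all tested genes were lower. Suv39h1 and Cbx5 passed the threshold, both lower. In this comparison 25.6% of 19091 tested genes passed in either direction and 11.4% passed as lower, so 2 of 10 is to be read against a high background. Over probes, 4 of 17 passed as lower and 0 as higher, against 12.2% of 25330 tested probes that passed as lower. A difference of -0.5 or below was found for 5 of the 10 genes and for 27.1% of all tested genes. The count depends on the processing. With the mean over probes Cbx5 was at -0.84 and Suv39h1 alone passed, with 24.2% of all tested genes. Under the 75th percentile and the spike-in probes 4 and 3 of the 10 passed, with 31.0% and 27.7% of all tested genes. The medians there were -0.79 and -0.76.

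CHQ was set against the same ELA array. The median over the 10 genes was -0.65 against -0.09 over all tested genes, with 8 lower and 2 higher, and 7 genes lay at -0.5 or below, as did 29.2% of all tested genes. As reported, Suv39h1 alone of the 10 passed the threshold, where 26.6% of 19097 tested genes passed in either direction and 11.9% as lower. Cbx5 passed too with an offset of 0 and in the deposited table, where 28.6% and 31.3% of all tested genes passed. The count depends on the scaling, since 6 of the 10 passed, with medians of -1.04 and -1.11, when arrays were set to the 75th percentile or to the spike-in probes, where 34.6% and 33.8% of all tested genes passed. Over probes, 3 of 17 passed as lower, against 12.7% of 25310. Cbx5, at -0.99, lay just outside the threshold in CHQ, and the gene just inside it in AZA was Cbx5 too, at -1.13.

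**Figure D2:**
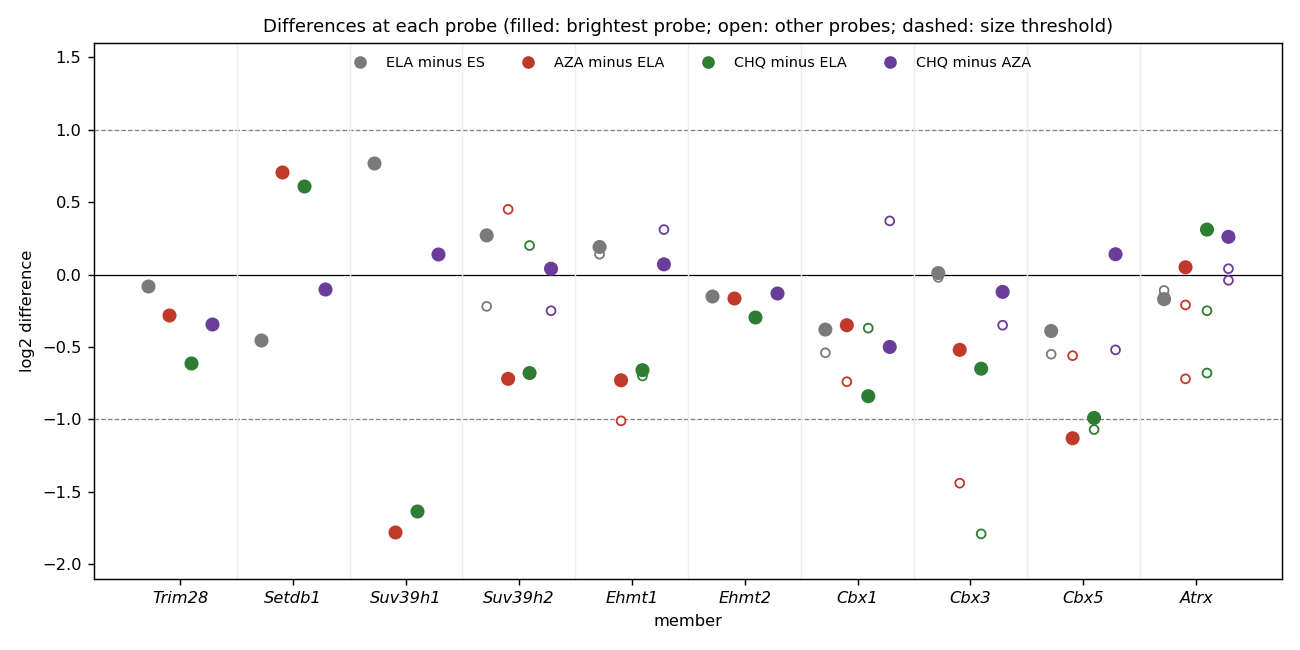
Log2 difference of each detected probe (vertical axis) in the 4 comparisons for the 10 genes (horizontal axis), with filled points for the brightest probe, open points for other probes and dashed lines at the threshold of 1 in size. Suv39h1 lay at -1.78 in AZA and -1.63 in CHQ, Setdb1 lay above 0 in both, and in the within-slide comparisons (grey and purple) all 17 probes stayed inside the dashed lines.

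Among the writers, Suv39h1 had the largest change. Its log2 levels were 11.03 in ES, 11.79 in ELA, 10.02 in AZA and 10.16 in CHQ. Both treated arrays thus lay below both control arrays, not only below ELA. The level fell 3.43-fold in AZA and 3.1-fold in CHQ relative to ELA, and 2.99% and 3.54% of tested genes fell by as much or more. Relative to ES the differences were -1.01 and -0.87. AZA and CHQ differed by 0.14, within the spotting error. Across 8 alternative settings the AZA difference stayed between -1.94 and -1.78 and the CHQ difference between -1.78 and -1.63. Suv39h1 has a single probe on the array, so its fall has no second reading here.

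Setdb1 moved the other way. It was at 11.42 in ES, 10.97 in ELA, 11.68 in AZA and 11.58 in CHQ, so that ELA was the lowest array and the ES level lay within 0.26 of both treated arrays. The differences from ELA, 0.71 in AZA (1.64-fold) and 0.61 in CHQ (1.53-fold), were below the threshold. Among all tested genes, 19.5% and 22.7% lay as high or higher. The direction held in all 8 alternatives, from 0.59 to 0.73 in AZA and from 0.43 to 0.63 in CHQ. The single Setdb1 probe, at position 4503, lies at the 3′ end of the transcript (chr3:95127544-95127603).

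The Ehmt pair was read next. Ehmt1 read 14.25 in ES, 14.44 in ELA, 13.72 in AZA and 13.79 in CHQ at the probe with the GT run, and 13.60, 13.74, 12.73 and 13.04 in the same order at position 4552 (chr2:24646765-24646824). Both probes were lower on both treated arrays than on either control array. The probe without the run differed from ELA by -1.01 in AZA, which passed the threshold, and by -0.70 in CHQ, while the brightest differed by -0.73 and -0.66. Ehmt2, its partner, read 16.01 in ES, 15.85 in ELA, 15.70 in AZA and 15.57 in CHQ, and differed from ELA by -0.16 in AZA and -0.29 in CHQ. These sizes depend on the scaling, with Ehmt2 at -0.43 and -0.74 under the 75th percentile and at -0.51 and -0.92 under the spike-in probes, where Ehmt1 was at -0.95 and -1.08. As reported, the neighbouring levels of Ehmt2 in that order all differed by less than 0.21.

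For Suv39h2 the probes disagreed. The probe with the GT run read 14.92 in ES, 15.19 in ELA, 14.48 in AZA and 14.51 in CHQ, with differences of -0.72 and -0.68 from ELA. The probe at position 1715 read 9.23, 9.02, 9.47 and 9.21 in the same order, with differences of 0.45 and 0.20. These probes lie on 1 transcript of the array design, so the direction of Suv39h2 after treatment is not settled by these arrays. Over the 4 arrays the profiles of the GT-run probes of Suv39h2 and Ehmt1 lay 0.07 apart (Euclidean distance between centred log2 profiles), the closest pair among the 10 genes, whereas Setdb1 and Suv39h1 were the farthest apart at 1.97.

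Trim28, the corepressor that brings Setdb1 to its targets, was at 16.20 in ES, 16.12 in ELA, 15.84 in AZA and 15.51 in CHQ. Its level was lowest in CHQ, with differences from ELA of -0.28 in AZA and -0.61 in CHQ, neither past the threshold. Under the 75th percentile they were -0.67 and -1.15 and under the spike-in probes -0.67 and -1.27, so that the CHQ value passed under both. CHQ minus AZA, read within a slide, was -0.34.

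The HP1 genes were lower after treatment at all of their 6 probes. Cbx5 read 12.25 in ES, 11.87 in ELA, 10.74 in AZA and 10.87 in CHQ at position 3040 (chr15:103027779-103027838), and fell 2.18-fold in AZA. At position 1121 (chr15:103029698-103029757) it read 11.56, 11.01, 10.45 and 9.93 in the same order. That probe differed from ELA by -0.56 in AZA and fell by 1.07 in CHQ, so each treatment passed the threshold at 1 of the Cbx5 probes, and not at the same one. The Cbx5 levels in both treated arrays were below both controls at either probe.

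Relative to ELA, Cbx3 showed the widest gap between probes of an HP1 gene on both treated arrays. In the coding part, at position 517, it read 14.66 in ES, 14.64 in ELA, 13.20 in AZA and 12.85 in CHQ, and fell 2.71-fold in AZA and 3.46-fold in CHQ relative to ELA. Only 2.60% of tested genes fell as far in CHQ as this probe. At position 1684 (chr6:51433585-51433644), the brighter probe, it read 15.50, 15.51, 14.99 and 14.87, with differences of -0.52 and -0.65 that did not pass. Both probes agree in sign, and the 5′ probe minus the 3′ probe gave -0.92 in AZA and -1.15 in CHQ.

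Cbx1 read 10.46 in ES, 10.08 in ELA, 9.73 in AZA and 9.24 in CHQ at its brightest probe, which was designed on a cDNA clone (chr11:96665022-96665081), and 9.54, 9.0, 8.26 and 8.63 at the probe of the reference transcript (position 1212, chr11:96669893-96669952). The differences from ELA were -0.35 and -0.74 in AZA and -0.84 and -0.37 in CHQ, none past the threshold. The brightest probe was lowest in CHQ and the other lowest in AZA.

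Atrx differed along its length. At position 668 it read 10.32 in ES, 10.19 in ELA, 9.47 in AZA and 9.51 in CHQ, with differences from ELA of -0.72 and -0.68. At position 7531 (chrX:102995607-102995666) the differences were -0.21 and -0.25. At position 9494 (chrX:102993644-102993703), the brightest probe, it read 10.67, 10.50, 10.55 and 10.82, with differences of 0.05 and 0.31. None of the 3 probes passed the threshold, and the sign of the brightest one in AZA turned in 3 of 8 alternatives.

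**Figure D3:**
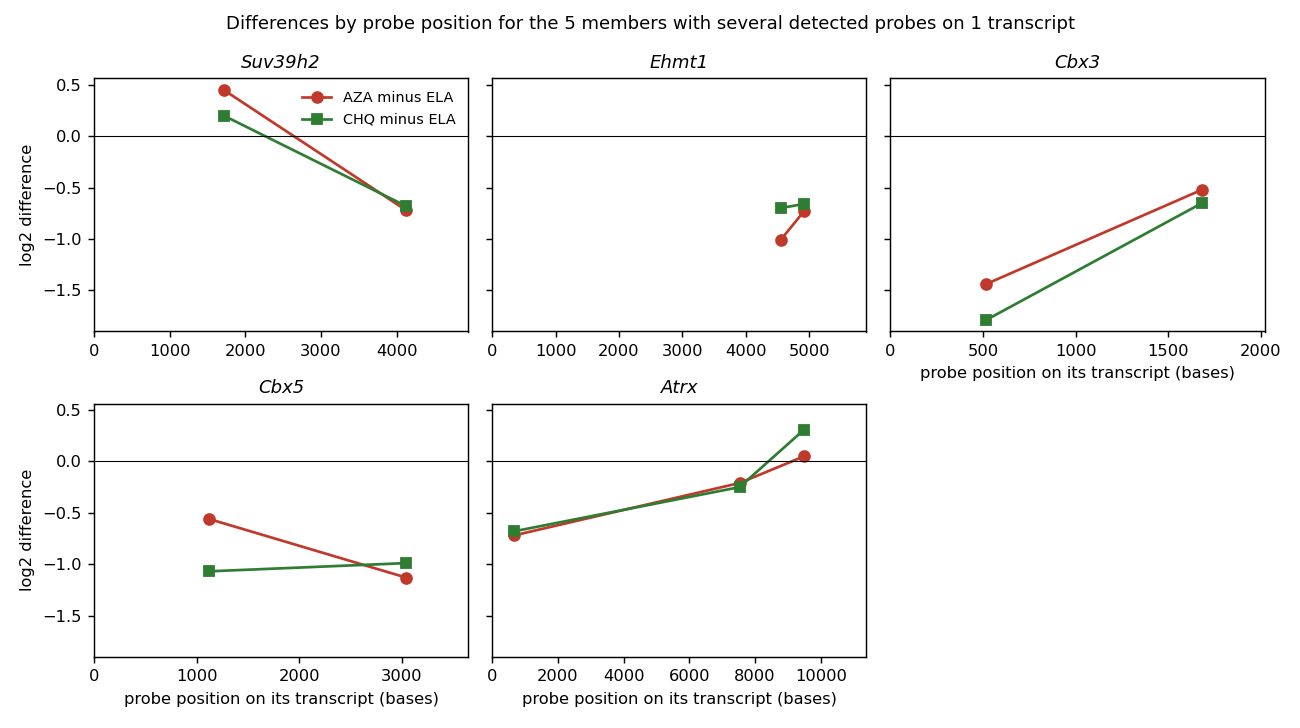
Log2 difference from ELA (vertical axis) against the position of the probe on its transcript in bases (horizontal axis) for Suv39h2, Ehmt1, Cbx3, Cbx5 and Atrx, with red circles for AZA, green squares for CHQ and 1 point per probe. Cbx3 and Atrx had lower values at the 5′ probe, Suv39h2 had a higher value there, and Cbx5 was mixed.

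Lower values at 5′ probes were also found across the arrays. Over 2072 reference transcripts with detected probes at least 500 bases apart, the difference from ELA at the 5′ probe minus that at the 3′ probe had a median of -0.31 in AZA (5′ lower in 66.8%) and -0.47 in CHQ (74.3%). The same median was -0.07 for ELA minus ES and -0.10 for CHQ minus AZA. The corresponding gaps were -0.92 and -1.15 for Cbx3 and -0.77 and -0.99 for Atrx, while Suv39h2 had gaps of 1.17 and 0.87 and Cbx5 of 0.57 and -0.08. The part of this 5′ shift in the falls of Suv39h1 at position 965 and of the 5′ probes of Cbx3 and Atrx was not tested. Between the probes of 3823 genes with 2 detected probes, the absolute gap had a median of 0.40 in AZA and 0.42 in CHQ, with 1.24 and 1.26 at the 90th percentile, and the spread per probe was an SD of 0.55 and 0.56. That spread is between probes on the same arrays and holds no variation between cultures, arrays or slides.

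**Figure D4:**
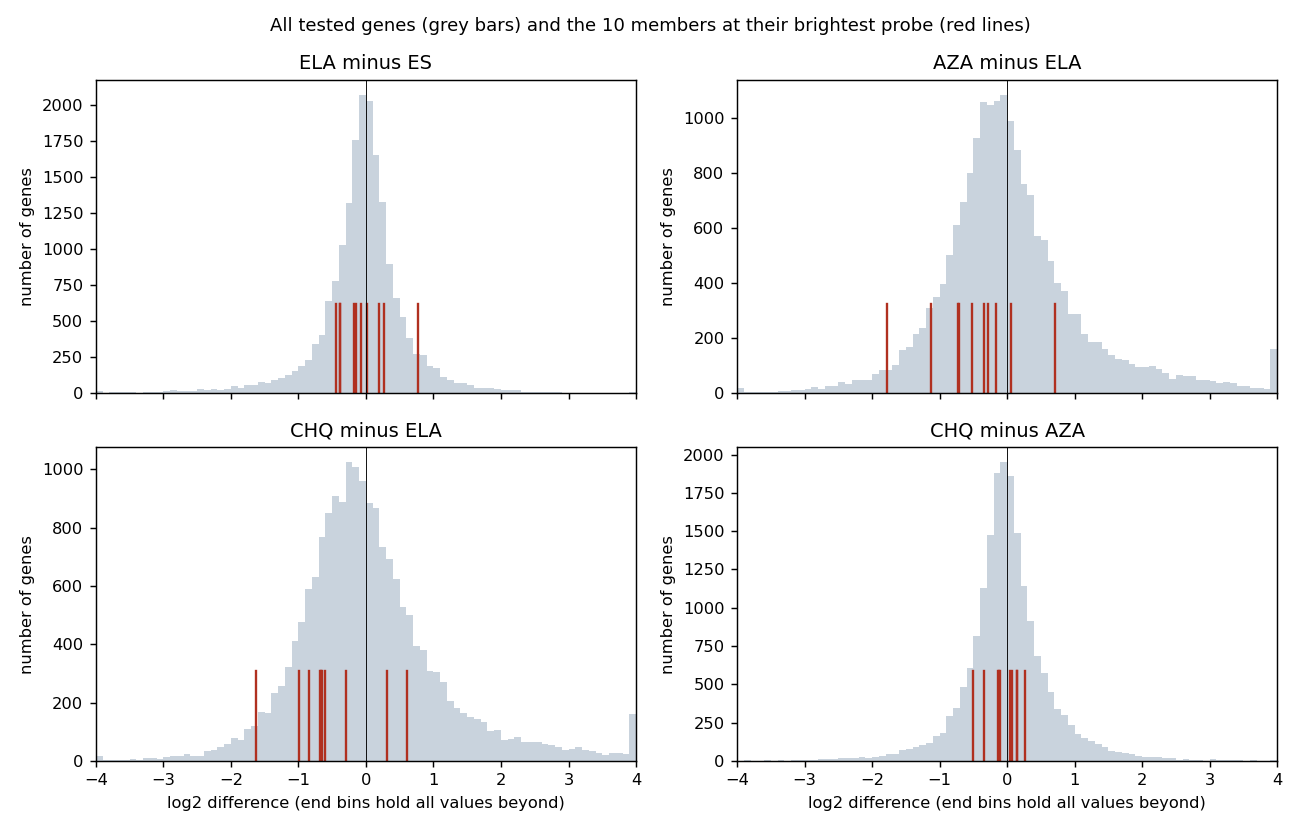
Number of tested genes (grey bars, vertical axis) by log2 difference (horizontal axis, bins of 0.1) in the 4 comparisons, with red lines at the 10 genes at their brightest probe. The spread of all genes was wider in AZA minus ELA and CHQ minus ELA, where 25.6% and 26.6% passed the threshold, than in the within-slide comparisons, where 10.1% and 10.3% did, and most red lines lay left of 0 in the former.

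A low level on both treated arrays was common but not general. At the brightest probe 8 of the 10 genes had both control arrays above both treated arrays, and at all detected probes 14 of 17. Among 20678 genes above background everywhere the share was 39.2%, and among probes it was 41.5%. Setdb1 was the reverse, a pattern shown by 24.1% of genes, and Atrx was neither. Of the 30 neighbouring pairs of levels in the 10 orders, 16 differed by less than the 0.21 that spotting gives. Those include ES and ELA for Trim28, Ehmt1, Ehmt2 and Cbx3, and AZA and CHQ for Setdb1, Suv39h1, Suv39h2, Ehmt1, Ehmt2, Cbx3 and Cbx5. They also include pairs that decide the pattern, ELA over AZA for Ehmt2 (0.16) and CHQ over ES for Setdb1 (0.16).

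Direct comparison of the inhibitors, within a slide, gave none past the threshold among the 10 genes, where 10.3% of 19129 tested genes passed. The median for CHQ minus AZA was -0.03 against -0.02 over all genes, with 5 lower and 5 higher. The probes lay between -0.52 and 0.37. Cbx1 (-0.50 at the brightest probe, 0.37 at the other) and Cbx5 (0.14 and -0.52) were of either sign by probe, as were Suv39h2 (0.04 and -0.25) and Atrx (0.26, 0.04 and -0.04). Cbx3 (-0.12 and -0.35) and Ehmt1 (0.07 and 0.31) had 1 sign at both probes, and that of Ehmt1 turned in 2 of 9 alternatives. With 1 array each, no interval can be given for these differences, and they do not show that the inhibitors act alike.

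Scaling changed the sizes but seldom the directions. Scaling each array to the 75th percentile of the processed signal moved the median of all tested genes to -0.20 in AZA and -0.25 in CHQ relative to ELA, and scaling to 7 E1A spike-in probes moved it to -0.27 and -0.41. Relative to all genes, the median of the 10 lay at -0.36 in AZA and -0.56 in CHQ as reported, at -0.59 and -0.79 under the percentile, and at -0.49 and -0.70 under the spike-in probes. Under either of these scalings 6 genes passed the threshold in CHQ, all lower, namely Trim28, Suv39h1, Suv39h2, Ehmt1, Cbx3 and Cbx5. The share of all tested genes that passed in either direction rose too, to 34.6% under the percentile and 33.8% under the spike-in probes. In AZA, Suv39h1, Suv39h2 and Cbx5 passed under both, and Ehmt1 under the percentile only, where 31.0% and 27.7% of all tested genes passed. Suv39h2 is counted here at its probe with the GT run. As reported, its other probe lay above ELA by 0.45 in AZA and 0.20 in CHQ, so its direction is not settled. For ELA minus ES the spike-in probes put all genes at -0.60, so that the 10 genes, at -0.77, lay at -0.17 relative to them. Under that scaling Ehmt1, Suv39h2 and Cbx3 turned to lower in ELA than in ES, at -0.51, -0.42 and -0.67, and Suv39h1 stayed higher, by 0.16.

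**Figure D5:**
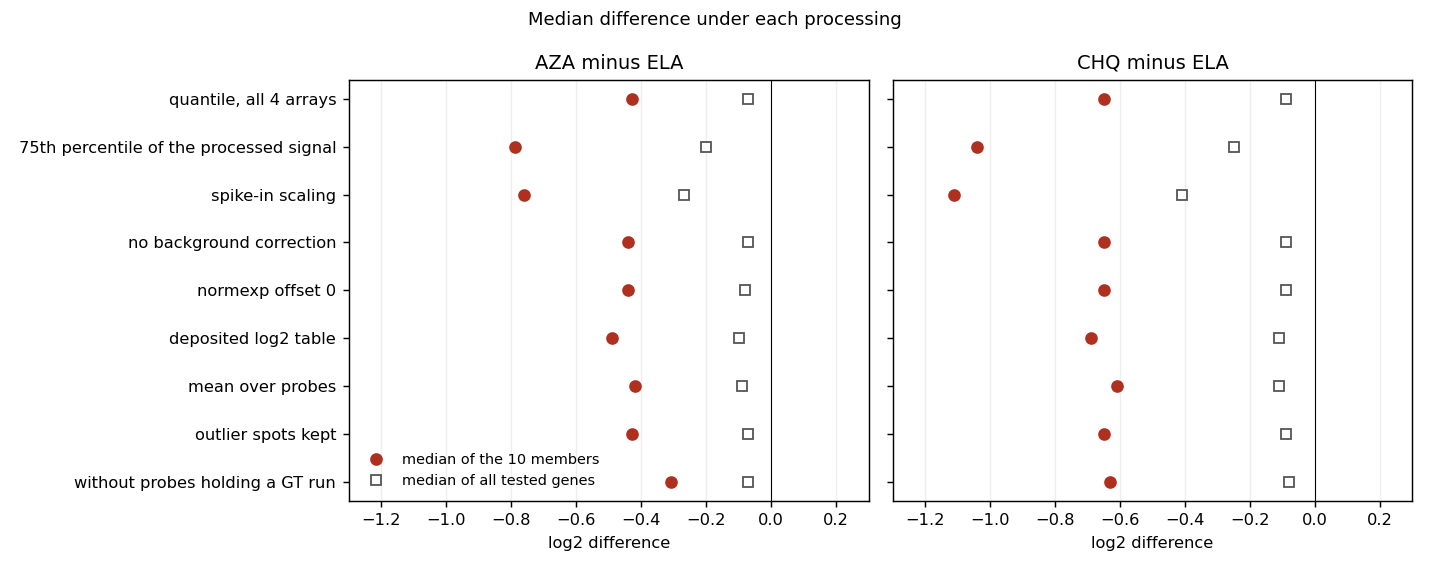
Median log2 difference (horizontal axis) of the 10 genes (red circles) and of all tested genes (open squares) on the treated arrays relative to ELA under each processing (vertical axis). The median of the 10 genes stayed below that of all genes in every setting shown, from -0.79 to -0.31 in AZA and from -1.11 to -0.61 in CHQ.

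Genes that work with these factors were read from lists, which were chosen with earlier results of these data known. Among 22 cofactors and recruiters of H3K9 methyltransferases, all tested, 1 rose and 1 fell from ES to ELA, 2 rose and 2 fell in AZA, 4 rose and 1 fell in CHQ relative to ELA, and 1 fell in CHQ relative to AZA. Over all tested genes 4.47% rose and 5.59% fell from ES to ELA, 14.2% rose and 11.4% fell in AZA, 14.8% rose and 11.9% fell in CHQ, and 4.8% were lower in CHQ than in AZA, so these counts are near or below the background. The counts depend on the scaling, with 4 at or above 1 and 4 at or below -1 in CHQ under the 75th percentile, 1 and 4 there under the spike-in probes, and 0 and 7 from ES to ELA under the spike-in probes. Of all tested genes 34.6%, 33.8% and 21.0% passed in either direction, in the same order. From ES to ELA the spike-in probes put all genes at -0.60. Their medians were -0.05, 0.22, 0.01 and -0.14. Under the 75th percentile and the spike-in probes they were 0.07 and 0.02 in AZA and -0.06 and -0.21 in CHQ. Those scalings moved the all-gene medians from -0.07 to -0.20 and -0.27 in AZA and from -0.09 to -0.25 and -0.41 in CHQ. In both treated comparisons the list median stayed above that of all genes. Pphln1, which encodes periphilin, a subunit of the HUSH complex that recruits Setdb1, was at 12.31 in ES, 13.39 in ELA, 10.55 in AZA and 11.01 in CHQ. It fell by 2.84 in AZA and fell by 2.38 in CHQ, and its other probe gave -2.99 and -2.87. Tasor, the scaffold of the same complex, went the opposite way, at 11.64, 10.69, 12.18 and 11.85, with rises of 1.49 and 1.16, and its other probe gave 0.91 and 1.19. Mphosph8, the subunit that binds methylated H3K9, differed by 0.16 and -0.01.

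Zfp57, a KRAB zinc finger protein that brings Trim28 to imprinted regions, was at 10.92 in ES, 8.17 in ELA, 12.12 in AZA and 10.47 in CHQ. It fell by 2.75 from ES to ELA, rose by 3.96 in AZA and by 2.31 in CHQ, and CHQ minus AZA was -1.65. Its other probe gave -0.52, 0.97, -0.26 and -1.23, so the rise in CHQ rests on 1 probe. Zfp644, a zinc finger partner of the Ehmt pair, fell by 1.32 in AZA, and Zfp809, which recruits Trim28 to retroviral sequence, rose by 1.17 in CHQ, with 0.80 at its other probe.

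The enzymes that remove H3K9 methylation were read next. Of 10 tested H3K9 demethylases 0 passed from ES to ELA, 2 rose and 0 fell in AZA, 4 rose and 0 fell in CHQ, and 0 passed between the inhibitors. The medians were 0.22, 0.39, 0.49 and 0.12. Beside the 14.2% and 14.8% of all tested genes that passed as higher, 2 of 10 is near the background and 4 of 10 above it. Of the 4, Phf8 is uncertain, at 1.03 in CHQ with -0.54, 0.41 and -1.01 at its other probes. Under the percentile and the spike-in probes 5 of the 10 lay higher in CHQ, with 2 and 1 of them at 1 or above. In AZA 1 of the 10 lay at 1 or above under each, against 2 as reported. Of all tested genes 34.6% and 33.8% passed in either direction in CHQ under these scalings, and 31.0% and 27.7% in AZA. The shares that passed as higher were not computed there. Kdm3a was at 14.23 in ES, 13.38 in ELA, 14.46 in AZA and 15.07 in CHQ, with rises of 1.08 and 1.69. Kdm4b, at 11.66, 12.40, 13.62 and 13.57, rose by 1.22 and 1.17. The medians of this list for AZA and CHQ stayed above 0 at 0.33 and 0.23 under the 75th percentile and at 0.25 and 0.11 under the spike-in probes. For ELA minus ES the spike-in probes put this list at -0.41 and all genes at -0.60. Among 5 tested other methyltransferases of H3K9 or H4K20 none passed at the brightest probe, with medians of -0.12, 0.32, 0.40 and -0.06. Their direction depends on the probe. Setdb2 gave 0.46 in AZA and 0.24 in CHQ, but -0.71 and -0.73 at its other probe. Kmt5b gave 0.83 in AZA, but -1.46, 0.58 and -0.70 at its other probes. Kmt5a gave -0.83 in CHQ and -1.36 at its other probe. The list medians for AZA and CHQ were 0.07 and 0.22 under the percentile and 0.03 and 0.07 under the spike-in probes. All genes moved down too, from -0.07 and -0.09 to -0.20 and -0.25 and to -0.27 and -0.41. Likewise among 2 tested TIF1 relatives of Trim28 none passed, with medians of 0.29, -0.34, -0.40 and -0.06. Under the spike-in probes that for ELA minus ES was -0.39, with all genes at -0.60. Trim33 lay at -0.97 in AZA. In AZA 1 of the 2 was at or below -1 under the percentile, the spike-in probes and the deposited table. The same held in CHQ under the spike-in probes.

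Genes reported to be silenced by these factors in ES cells, several of them also by DNA methylation, were read as their targets. The list name may not hold for all of them here. In ES 15 of the 20 measured genes were well above background, from Mael at 12.73 and Taf7l at 12.48 down to Cdx2 at 6.85. Silencing itself was not measured. Of the 20 measured genes, 11 were well above background in ELA, a filter that does not use the treated arrays. The list itself was chosen with earlier results of these data known, so its counts are a description and not independent support. Among the 11, 8 rose, 1 fell and 2 (Taf7l and Mael) did not pass in AZA. In CHQ 6 rose, 0 fell and 5 did not pass. Of all 21695 genes above background in ELA, 10.9% rose and 12.3% fell by 1 or more in AZA, and 11.2% and 12.4% in CHQ. The other 9 listed genes have only a bound in ELA, and that bound was at least 2-fold higher for 5 of them in AZA and 3 in CHQ. Not detected in ELA, they could enter as higher only through the treated arrays. No share over all such genes was computed, so these counts are not read as a result. From ES to ELA 0 of 12 genes that could be called rose and 4 fell, against 4.47% and 5.59% of all tested genes, and Zscan4f, one of the 4, entered only through its ES level. The count of falls was 7 of 12 with scaling to the 75th percentile or to the spike-in probes, and 5 of 12 in the deposited table. In these settings 13.1%, 21.0% and 12.4% of all tested genes passed in either direction, and the spike-in probes put all genes at -0.60. Stk31, a germ cell kinase gene, fell by 1.56. Zscan4f, a marker of the rare ES cells with features of the early cleavage embryo, read 10.30 in ES, 14.34 in AZA and 14.20 in CHQ and was not well above background in ELA, so it was at least 194-fold higher in AZA and at least 176-fold higher in CHQ than in ELA, and at least 11.8-fold lower in ELA than in ES. Zscan4c, a near copy that can share signal with it, rose by 3.53 and 3.69.

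Wfdc15a was at least 11.2-fold higher in AZA than in ELA, where it was not well above background, so it entered through its AZA level. Ddx4, a germ cell RNA helicase, was the 1 gene that fell in AZA, by 1.21, and it was higher in CHQ than in AZA by 1.69. Of 15 genes tested between the inhibitors, 2 were higher and 5 lower in CHQ, against 5.54% and 4.8% of all tested genes. Mael, of the piRNA pathway, was higher by 1.08, and the testis tubulins Tuba3a and Tuba3b, near-identical copies that the array may not separate, gave CHQ minus AZA differences of -2.19 and -2.05.

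Markers of other cell states and types moved as well. Over all tested genes 4.47% rose and 5.59% fell from ES to ELA, 14.2% and 11.4% did in AZA, and 14.8% and 11.9% in CHQ, and with 3 to 5 markers a list the counts describe single genes. Of 4 primed epiblast markers 2 rose from ES to ELA, 3 fell in AZA (Fgf5 at -2.54, Dnmt3b at -1.71 and Pou3f1 at -1.55) and 2 fell in CHQ, Fgf5 and Dnmt3b. Of 5 primitive endoderm markers 2 rose in CHQ, Gata6 to at least 8.87-fold and Sox17 to at least 6.70-fold the ELA level. Neither was well above background in ELA, so that they were tested through their level on the treated arrays. The other Sox17 probe gave 1.38 in CHQ minus ELA and 1.16 in CHQ minus AZA. From ES to ELA 0 endoderm markers could be called. Of 5 fibroblast markers 2 rose from ES to ELA, 1 rose and 2 fell in AZA and 3 fell in CHQ. Dcn, among the rises to ELA, was not well above background in ES and was tested through its ELA level. The summed intensity of the fibroblast list was 5314 in ES, 13738 in ELA, 7964 in AZA and 3275 in CHQ, most of it from Thy1, and that of the endoderm list was 566, 549, 931 and 2202. Of 5 trophoblast markers 1, Krt7, rose in CHQ. Of 3 early neural markers Nes fell in both treatments. Lum was not well above background on any array. Between the inhibitors, within a slide, CHQ had 2 endoderm markers higher than AZA (Gata6 by 1.83 and Sox17 by 1.75), 2 primed markers higher (Pou3f1 by 1.84 and Fgf5 by 1.39) and 2 pluripotency markers lower (Nanog at -2.85 and Esrrb at -2.01). The part of such cells or states in the levels of the 10 genes was not tested.

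The genes whose profile lay nearest to that of Suv39h1, the member with the widest range at the brightest probe, were Abhd8 (distance 0.08), Rrad (0.11), Sh3gl3 (0.11), Spred3 (0.13) and Rbm15b (0.13), by Euclidean distance between centred log2 profiles over 4 arrays among 13081 candidates. Abhd8, for example, was at 9.66 in ES, 10.49 in ELA, 8.69 in AZA and 8.76 in CHQ. Rrad, at 6.51 in AZA and 6.60 in CHQ, and Spred3, at 6.56 and 6.86, read close to background there. The size of their falls is therefore uncertain.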

How the data were processed

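Cy3-labelled cRNA of 4 RNA pools was hybridised to single-colour Agilent mouse 60-base arrays. Per the file headers the authors read spot intensity with Feature Extraction 10.7.3.1, while the submitters' processing notes name Agilent Feature Extraction 9.1 and limma. The deposited intensity values are the mean spot signal and the local background, not normalised between arrays. The deposited log2 table was background-corrected and quantile-normalised by the authors. It served as an alternative.

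Levels were computed with limma 3.58.1 in R 4.3.3 from the mean intensity, by normexp with an offset of 50 on the median background, then quantile normalisation of the 4 arrays. Control and outlier spots were left out, and the log2 values of repeated spots were averaged. This left 55122 of 55681 probes usable. Names were updated through RefSeq, in which the accessions of 26582 probes were found. A gene was read at the probe with the highest mean, and probes of a member are all given. Where a probe was below detection on an array, a bound was computed from the lowest signal among detected probes of that array. The script was tested on simulated data.

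With 1 array per group, no p-value was computed, and precision is limited by how few arrays there are. From each list the text gives counts and at most 2 called genes with the largest rise and 2 with the largest fall per comparison. Mphosph8, Phf8, Taf7l, Lum, Pou5f1, Zfp42, Trim33, Pou3f1, Setdb2, Kmt5a, Kmt5b, Uhrf1, Chaf1b and Atf7ip2 were named outside this rule, after their values were seen. The nearest genes were taken for the member with the widest range at its brightest probe. Alternatives were scaling to the 75th percentile or to spike-in probes, quantile normalisation within a slide, no background correction, an offset of 0, the deposited table, the mean over probes, no filter on dim probes, outlier spots kept, a threshold of 0.5 and, added after seeing the data, leaving out probes with a GT run. The members and lists were chosen with earlier results of these data known.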

Additional observations from a re-analysis of the deposited data

How the results depend on the processing

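Values of the 10 genes as reported were compared with 11 alternatives. From ES to ELA, 2 genes passed under spike-in scaling and 1 at a threshold of 0.5, against 0 as reported, and the median over the genes was -0.77 under spike-in scaling. For AZA minus ELA, 4 passed under the 75th percentile, 3 under spike-in scaling, 1 with the mean over probes, 6 at a threshold of 0.5 and 3 without probes that hold a GT run, an alternative chosen after seeing the data. The median was -0.79 with the percentile scaling and -0.76 with the spike-in probes. For CHQ minus ELA, 6 passed with each of these scalings, 2 with an offset of 0, 2 in the deposited table, 3 with the mean over probes and 8 at a threshold of 0.5, and the median was -1.04 and -1.11 under those scalings. For CHQ minus AZA the median was -0.21 under spike-in scaling. The share of all tested genes that passed moved as well, to 21.0% under spike-in scaling and 28.3% at a threshold of 0.5 for ELA minus ES, to 52.3% in AZA and 55.0% in CHQ at 0.5, and to 28.6%, 31.3% and 24.9% in CHQ with an offset of 0, the deposited table and the mean over probes. No median over the genes changed sign. The causes were not tested.

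Quantile normalisation within a slide applies only to the within-slide comparisons. No paired analysis was possible because each group is 1 array, and for the same reason none was left out in turn. Fewer spots were well above background on the ES and ELA arrays, which limits what was detectable there.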
